A study of Mus musculus with 2 samples.

Results

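Migratory dendritic cells were the barcodes of 2 single-cell libraries that carried both Fscn1 and Ccr7. Barcodes first had to show 300 or more genes, 500 or more UMIs (unique molecular identifiers, 1 per captured RNA molecule) and less than 10% of UMIs on mitochondrial genes. A kept barcode was a member when it held at least 2 UMIs of Fscn1 and at least 1 of Ccr7. Its C1qa and C1qb UMIs, markers of macrophages and microglia, had to stay under 0.5% of its total, and its UMIs of Cd3d, Cd3e and Cd3g, markers of T cells, under 2. This gave 367 members among 15234 kept barcodes of 17451 in all: 209 of 7079 kept barcodes in the ibudilast library and 158 of 8155 in the PBS library. The members were thus chosen by the UMI counts of these 7 genes, which are described and not tested.

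Both libraries were labelled as CD45+ tumour-infiltrating cells, CD45 being the surface marker of blood-derived cells and microglia. They came from brains of C57BL/6 mice that carried GL261, a transplantable mouse glioma line injected into the brain. The sources used here give no age or sex. Treated mice received ibudilast, an inhibitor of phosphodiesterases and of the cytokine MIF, given into the stomach in doses of 20 mg/kg on 5 days of each week, over 2 weeks. The other mice received PBS on the same schedule; a label calls that sample untreated. There was 1 library per group, and the sources used here do not say how many mice entered each, so no difference between ibudilast and PBS has a replicate check or a test.

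Dendritic cells take up antigen in tissues, and on maturation they lose much of their uptake, gain costimulatory molecules and follow the chemokines that bind Ccr7 to draining lymph nodes. Fscn1 encodes fascin, which bundles actin in the long protrusions of mature dendritic cells, and Ccr7 the receptor that guides them. In tumours the same state has been described with high levels of checkpoint ligands such as Cd274 (PD-L1), together with Ccl22 and Ccl17, ligands of Ccr4 on regulatory and type 2 helper T cells. Both conventional types of dendritic cell can enter it: type 1, which presents antigen to CD8 T cells, and type 2, which presents mainly to CD4 T cells.

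Promoters are shown for 3 genes that carry main results. Ccl22 and Ccl17 are the chemokine genes that were lower in the ibudilast library, and they lie close together on chromosome 8 with Cx3cl1 between them. Nfkb2, which encodes the p100 and p52 subunit of the non-canonical NF-kB pathway, was higher in migratory than in either conventional type. Each RefSeq sequence (GRCm38.p6) runs from 250 bases before to 50 bases after a listed start site and is read 5′ to 3′ on the plus strand. Capitals mark matches to the kappaB consensus, the DNA motif bound by NF-kB, searched on both strands.
Ccl22, chr8:94745434-94745733: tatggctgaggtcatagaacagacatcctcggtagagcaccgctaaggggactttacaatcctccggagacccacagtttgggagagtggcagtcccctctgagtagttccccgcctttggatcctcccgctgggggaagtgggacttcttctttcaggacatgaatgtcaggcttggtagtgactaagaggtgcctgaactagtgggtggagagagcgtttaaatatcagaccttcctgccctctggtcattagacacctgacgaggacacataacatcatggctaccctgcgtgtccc
Ccl17, chr8:94810203-94810502: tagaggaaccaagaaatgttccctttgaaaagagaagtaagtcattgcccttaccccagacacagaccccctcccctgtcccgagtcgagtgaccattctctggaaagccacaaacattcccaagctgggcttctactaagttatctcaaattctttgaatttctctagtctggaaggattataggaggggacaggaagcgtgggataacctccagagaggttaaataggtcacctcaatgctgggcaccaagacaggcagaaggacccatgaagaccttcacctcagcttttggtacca
Nfkb2, first start site, chr19:46304487-46304786: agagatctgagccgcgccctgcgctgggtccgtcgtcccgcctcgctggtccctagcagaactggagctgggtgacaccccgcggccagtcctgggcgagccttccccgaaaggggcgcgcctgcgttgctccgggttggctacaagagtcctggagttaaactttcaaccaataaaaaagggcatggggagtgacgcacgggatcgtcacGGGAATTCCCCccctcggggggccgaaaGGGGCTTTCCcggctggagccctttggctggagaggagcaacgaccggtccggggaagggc
Nfkb2, second start site, chr19:46305445-46305744: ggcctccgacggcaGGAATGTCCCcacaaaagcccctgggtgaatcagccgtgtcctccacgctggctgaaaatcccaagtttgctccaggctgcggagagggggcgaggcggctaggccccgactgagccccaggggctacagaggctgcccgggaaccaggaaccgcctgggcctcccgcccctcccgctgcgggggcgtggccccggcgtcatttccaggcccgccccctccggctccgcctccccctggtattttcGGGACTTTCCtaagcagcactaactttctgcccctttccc
The windows of Ccl22 and Ccl17 held no match. The first Nfkb2 window held 3, of which the pair furthest upstream overlap each other, and the second held 2. A further window of Nfkb2, not printed, overlaps the second and held 1, which is the downstream match of the second window again. Over all promoters of that table, 2776 of 32817 windows (8.46%) held at least 1 match. Of 16 genes looked up, 10 had a promoter in the table, and among these only Nfkb2 held a match. A match describes letters in this window only and says nothing of binding.

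Members carried the other 3 markers given for the state. Ccl22, Cacnb3 (a calcium channel beta subunit) or Il4i1 (an enzyme that breaks down phenylalanine and other aromatic amino acids) had a UMI in 205 of 209 ibudilast and 156 of 158 PBS members. The median member held 16 UMIs of Fscn1 and 15 of Ccr7 in the ibudilast library and 19 and 15 in the PBS library. Ptprc, which encodes CD45, had a UMI in 143 ibudilast and 97 PBS members. Just inside the limit, the 5 ibudilast barcodes with 2 Fscn1 UMIs had 231.2 CPM (UMIs of a gene per 1000000 UMIs) of Ccl22 and 198 CPM of Cacnb3, and the 5 PBS ones had 1418 and 155 CPM. Just outside it, 11 ibudilast barcodes with Ccr7 and 1 Fscn1 UMI had 235 CPM of Ccl22 and 14.7 CPM of Cacnb3, and the 2 PBS ones had 400.3 and 61.6 CPM. Barcodes with 2 or more Fscn1 UMIs and no Ccr7, 87 in the ibudilast and 72 in the PBS library, held 21.98 and 72.3 CPM of Ccl22. Those barcodes were deeper than members, with medians of 15054 and 16589 UMIs.

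2 ibudilast members went against the label. They held 141352 and 34874 UMIs, together 10.0% of all UMIs of ibudilast members, and carried 16 and 45 UMIs of Olig1, a transcription factor of oligodendrocytes and their precursors. Neither had a UMI of Ccl22, Cacnb3 or Il4i1, and they had 1 and 0 UMIs of Ptprc. The 2 barcodes differed from each other. The deeper held 113 CPM of Olig1, 615 CPM of Stmn1 and 283 CPM of Top2a, and the other 1290, 28.7 and 0 CPM. Which cells they were was not tested. No PBS member reached 10 UMIs of Olig1. The counts of genes, and the results that change without these 2 barcodes, are therefore also given without them, a choice made after they had been seen. Over markers of 7 other cell types, 6 ibudilast and 0 PBS members held at least 0.3% of their UMIs on the markers of 1 type: 4 on those of NK cells, 1 on those of B cells and 1 on those of neutrophils. Summed NK markers stood at 587 CPM in ibudilast and 270 CPM in PBS members, and summed oligodendrocyte markers at 225 and 137 CPM. Of the 10 NK markers, 0 were absent from ibudilast and 2 from PBS members, and of the 7 oligodendrocyte markers 0 and 2. The part of these cells in the differences given below was not tested.

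The libraries differed in depth. All deposited barcodes held 82196922 UMIs in the ibudilast and 119113794 in the PBS library, and kept barcodes had medians of 8267 and 12234 UMIs. Members were closer, with medians of 6833 and 7596.5 UMIs and a median of 1.11% of UMIs on mitochondrial genes in each library. 19 barcode sequences occurred in both libraries, and no member was shared.

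Migratory dendritic cells made up a larger share of all kept barcodes in the ibudilast library, while their shares of barcodes low in C1q lay within counting error of each other. They were 2.95% of kept barcodes in the ibudilast library (exact Clopper-Pearson 95% interval 2.57 to 3.37) and 1.94% in the PBS library (1.65 to 2.26), a ratio of 1.52 (1.24 to 1.87). Barcodes with 0.5% or more of UMIs on C1qa and C1qb numbered 2092 in the ibudilast and 4226 in the PBS library. Among kept barcodes under that limit, members were 4.93% in the ibudilast library (4.30 to 5.63) and 5.09% in the PBS library (4.34 to 5.92), a ratio of 0.969 (0.792 to 1.18). These intervals, like all others given for 1 library, cover counting error only and not differences between mice or sorts. To set depth equal, every barcode was also thinned to 2000 UMIs before the rule was applied, and shallower barcodes were left out. The shares of kept barcodes were then 2.52% in the ibudilast and 1.78% in the PBS library (ratio 1.41), and those among low-C1q barcodes 4.34% and 4.85% (ratio 0.894).

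**Figure D1:**
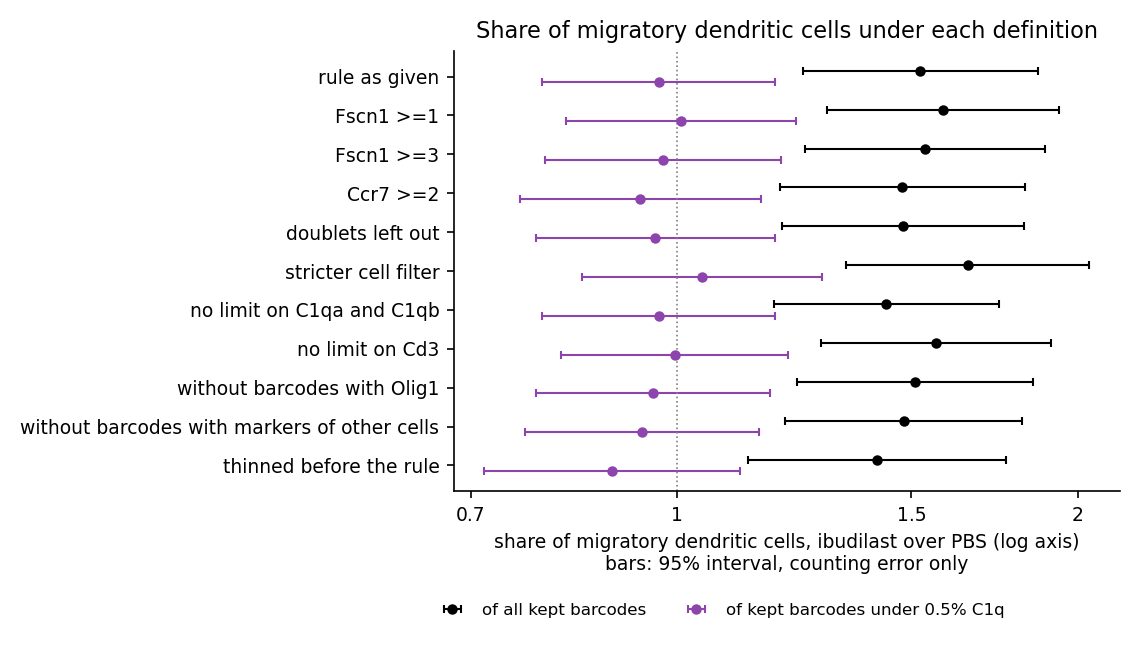
Ratio of the share of migratory dendritic cells in the ibudilast library over the PBS library (log axis), under the rule as given and 10 changed definitions, with 95% counting intervals. As a share of all kept barcodes the ratio lay between 1.41 and 1.65, and as a share of barcodes under 0.5% C1q between 0.894 and 1.04.

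Migratory cells were next set against the conventional dendritic cells of the same tumours. Type 1 cells were kept barcodes with at least 2 UMIs of Xcr1 and Clec9a and none of Cd209a, 165 in the ibudilast and 122 in the PBS library. Type 2 cells had at least 2 UMIs of Cd209a, none of Xcr1 or Clec9a and under 2 of Ly6c2, 16 and 30 barcodes. Both were held to the C1q and Cd3 limits of the members. Barcodes that met the member rule were left out of both types, so conventional cells with Fscn1 and Ccr7 count as members. The 16 ibudilast type 2 barcodes held 313 CPM of Cpa3, a marker of mast cells, and 3612 CPM of Mcpt1. The 30 PBS ones held 8.18 and 46.4 CPM. UMIs were summed per class and library, which gave 2 libraries per class, and tested with edgeR's quasi-likelihood test with the library as a term. p-values were adjusted by Benjamini-Hochberg over 8765 genes, and genes with an adjusted p under 0.05 were called. The 11 gating genes are left out of the results named here, and genes that vary together with them could differ through the gating itself. Migratory cells were higher than type 1 cells in 1792 genes (20.4% of those tested) and lower in 1721 (19.6%). They were higher than type 2 cells in 1094 genes (12.5%) and lower in 1031 (11.8%). Against both types they were higher in 933 genes (10.6%) and lower in 699 (7.97%). The counts of gene lists given below are to be read beside these shares. DESeq2 called fewer: 1045 higher and 792 lower against type 1, and 666 and 766 against type 2. Without the 2 barcodes with Olig1 the edgeR counts were 2186 and 2106 against type 1, and 1326 and 1141 against type 2. The medians over all genes tested were -0.01 against type 1 and 0.08 against type 2 on the log2 scale. Of 8 markers of plasmacytoid dendritic cells tested, 4 were lower and 1 higher in members than in type 1 cells, with a median of -1.715. Of 6 monocyte markers tested, 4 were lower and 0 higher than in type 2 cells, with a median of -2.91. Whether such cells were among the type 1 and type 2 barcodes was not tested.

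The markers of the state separated members from both types by large factors. Cacnb3 stood at 627 CPM in ibudilast and 583 CPM in PBS members, against 0.363 and 2.97 CPM in type 1 cells and no UMI in type 2 cells. Its log2 fold change against type 1 was 8.64 ± 0.33 (SE, adjusted p = 5.79e-17), and against 3 UMIs over the type 2 class it was at least 109-fold higher. Ccl22 stood at 567 CPM in ibudilast and 1270 CPM in PBS members, against 40.2 and 58.5 CPM in type 1 and 76.8 and 32.7 CPM in type 2 cells. Il4i1 reached 616 and 528 CPM in ibudilast and PBS members, 6.87 ± 0.28 log2 units over type 1 and 3.65 ± 0.29 over type 2 cells. In all 3 genes both member sums lay above all 4 sums of the conventional types.

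Of a wider list of 30 genes known from mature dendritic cells, 29 were tested and 27 were higher than in type 1 cells, 27 than in type 2 cells and 26 than in both. The median log2 fold change was 3.71 against type 1 and 4.49 against type 2. 7 of the genes had no UMI in type 2 cells, and with these at their lower bound that median was 3.60. Ccl5, a chemokine that draws T cells, stood at 9755 and 7859 CPM in ibudilast and PBS members, against 103 and 92.4 CPM in type 1 and 177 and 496 CPM in type 2 cells. Fabp5, a fatty acid carrier, was 5.97 ± 0.23 log2 units above type 1 and 4.49 ± 0.24 above type 2 cells. Socs2, a suppressor of cytokine signalling, was 6.59 ± 0.34 and 5.74 ± 0.46 units above them. Flt3, the receptor for the growth factor on which dendritic cells depend, did not pass the test against either type: it stood at 108 and 130 CPM in ibudilast and PBS members, against 132 and 99.2 CPM in type 1 and 88.7 and 79.1 CPM in type 2 cells. Without the 2 barcodes with Olig1 it passed against type 2 (0.70, adjusted p = 0.0323).

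**Figure D2:**
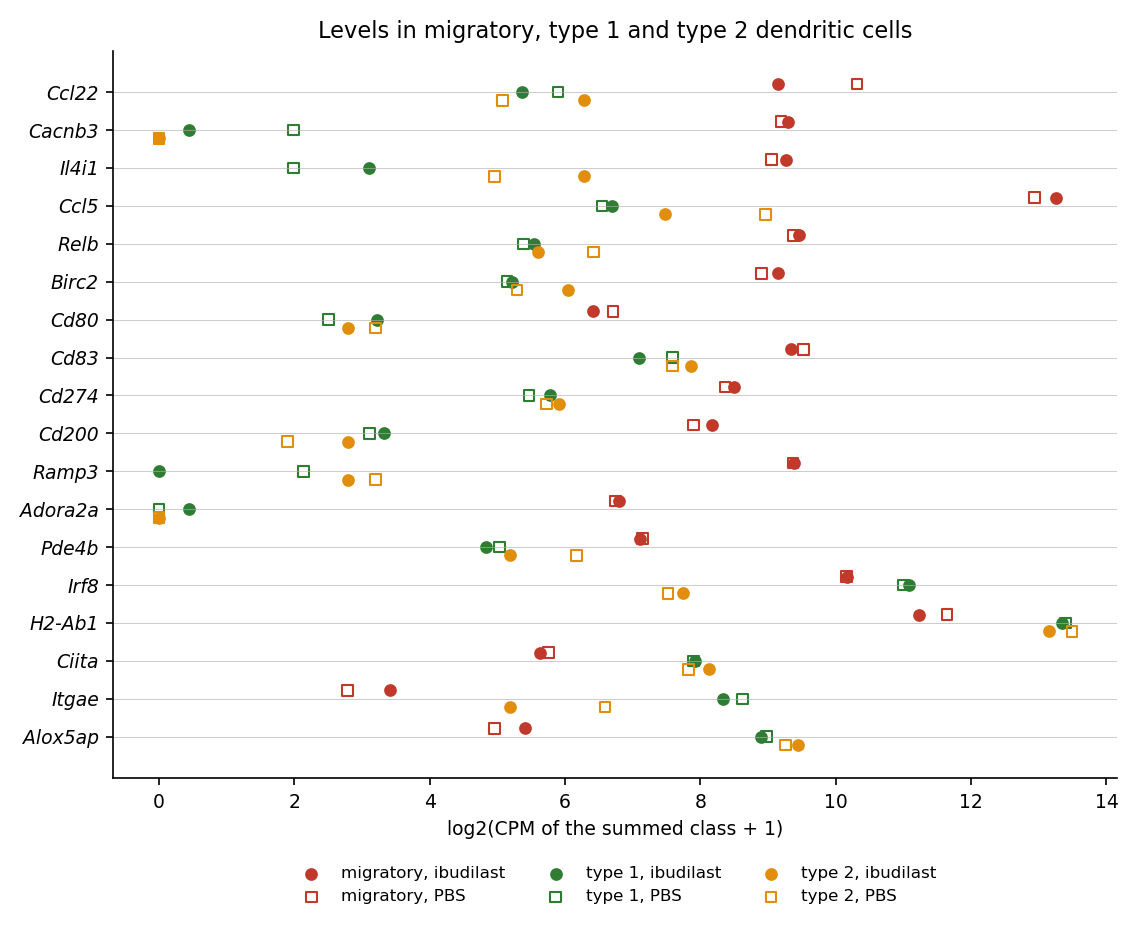
Levels of 18 genes, as log2(CPM + 1) of the summed class, in migratory, type 1 and type 2 dendritic cells of the ibudilast (filled circles) and PBS (open squares) libraries. The 2 member values of Cacnb3, Il4i1, Ccl5 and Ramp3 lie far above those of both conventional types, and the member values of H2-Ab1, Ciita and Alox5ap lie below them.

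Genes were also ranked by the smaller of their 2 fitted fold changes, which depend on the prior count where a class has no UMI. Ankrd33b, Apol7c and Tmem150c stood at 115 and 159, 66.6 and 97.0, and 63.8 and 67.6 CPM in ibudilast and PBS members, and had no UMI in type 1 or type 2 cells. Against 3 UMIs over the class, they were at least 228-fold, 136-fold and 112-fold higher than in type 1 cells. Against the shallower type 2 class the bounds were 23.9-fold, 14.3-fold and 11.7-fold. DESeq2 called none of these 3 genes against either type, with adjusted p between 0.0851 and 0.422. Tcf7, a transcription factor best known in T cells, stood at 51.8 and 61.0 CPM in ibudilast and PBS members, with 1 UMI over all type 1 cells and none in type 2 cells, where DESeq2 did not call it (adjusted p = 0.0640). Nudt17, Igfbp4, Insl6 and Slc27a3 were also among the 12 highest, with member levels between 71.8 CPM and 252.1 CPM, and of these DESeq2 called Slc27a3 against neither type (adjusted p = 0.132 and 0.221). At the other end, Alox5ap, needed for leukotriene synthesis, fell by 3.64 ± 0.21 log2 units against type 1 and by 4.13 ± 0.22 against type 2 cells. Bcl11a, Plet1, Epcam and Ifitm6 were also among the 12 lowest. Bcl11a, a transcription factor of early lymphoid and plasmacytoid development, stood at 4.56 and 2.94 CPM in ibudilast and PBS members, against 52.9 and 72.5 CPM in type 1 and 154 and 169 CPM in type 2 cells.

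Genes of the NF-kB pathway, which drives dendritic cell maturation, rose together against type 1 cells: 23 of 23 tested were higher, with a median of 1.97, and 16 were higher and 1 was lower against type 2 cells, with a median of 1.34. The non-canonical arm was among them. Relb, its transcription factor, stood at 699 and 663 CPM in ibudilast and PBS members, against 45.7 and 40.7 CPM in type 1 and 47.3 and 84.5 CPM in type 2 cells. Nfkb2, whose promoter is printed above, stood at 249 and 285 CPM in ibudilast and PBS members, against 42.1 and 45.4 CPM in type 1 and 88.7 and 81.8 CPM in type 2 cells. The kinase Map3k14 (NIK), which starts this arm, was 3.99 ± 0.21 log2 units above type 1 and 1.88 ± 0.26 above type 2 cells, where it missed the threshold after thinning (adjusted p = 0.0519). Birc2 (cIAP1), a ligase that restrains NIK, was 4.01 ± 0.20 and 3.49 ± 0.27 units above them. Nfkb1 and the inhibitor Nfkbia were higher than in type 1 cells, by 1.21 ± 0.20 and 1.97 ± 0.18 units, but did not pass the test against type 2 cells (-0.15 ± 0.23 and 0.25 ± 0.18).

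**Figure D3:**
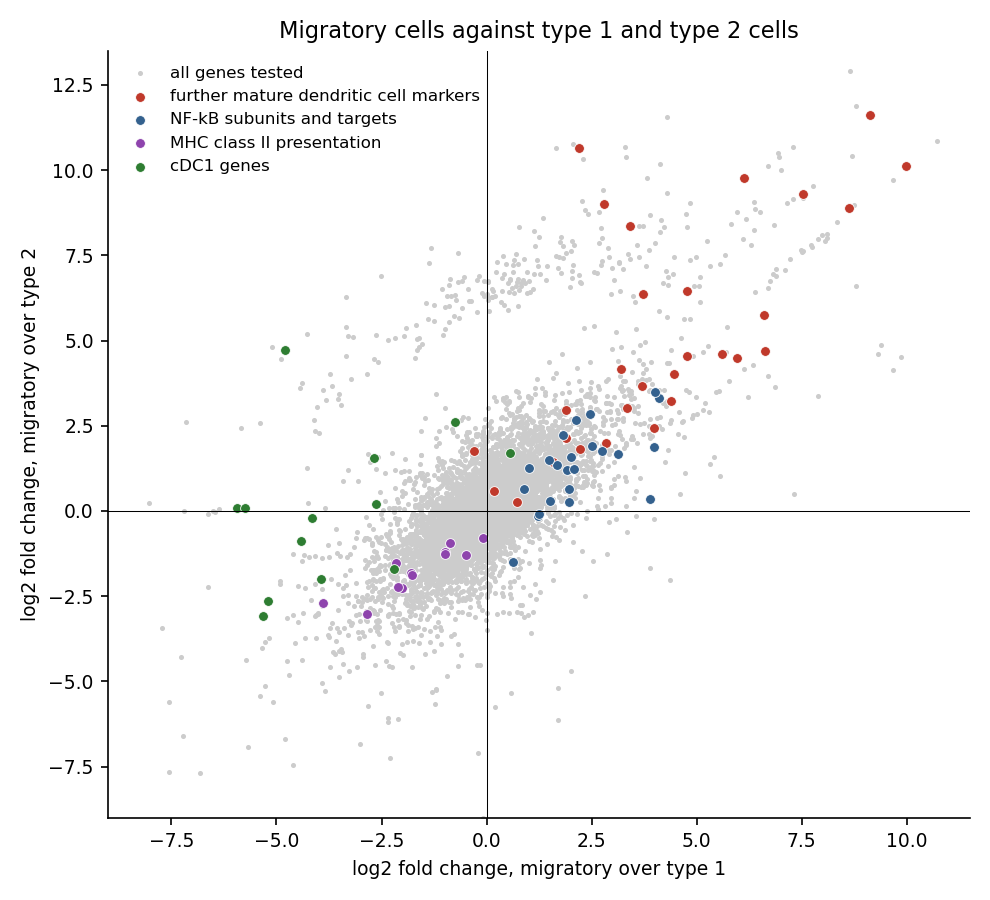
Log2 fold change of migratory over type 1 cells (x axis) and over type 2 cells (y axis) for all genes tested (grey) and 4 gene lists. Mature markers (red) lie mostly in the upper right, NF-kB genes (blue) to the right, MHC class II genes (purple) in the lower left and most type 1 genes (green) to the left. The band of grey and red points above a y value of about 5 includes genes with no UMI in type 2 cells, whose fold change depends on the prior count.

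Costimulatory genes were unevenly placed. Of 15 tested, 13 were higher than in type 1 cells and 9 than in type 2 cells, and none was lower. Cd80, a ligand of Cd28 and Ctla4, stood at 84.3 and 104 CPM in ibudilast and PBS members, against 8.34 and 4.66 CPM in type 1 and 5.91 and 8.18 CPM in type 2 cells. Cd86, the other ligand of these receptors, did not pass the test against type 1 or type 2 cells (0.33 ± 0.20 and 0.33 ± 0.24), although without the 2 barcodes with Olig1 it passed against type 1 (0.45, adjusted p = 0.0272). Cd40, through which helper T cells license dendritic cells, was 2.11 ± 0.19 units above type 1 cells and did not pass the test against type 2 cells (0.53 ± 0.21, adjusted p = 0.0691), where it passed without those barcodes (0.67, adjusted p = 0.00744). Il12b, the p40 chain of IL-12 and IL-23, stood at 166 and 301 CPM in ibudilast and PBS members, against 17.4 and 6.78 CPM in type 1 cells. Type 2 cells had no UMI of it, so it was at least 40.1-fold higher in members. Il15ra, which presents IL-15 to T and NK cells, was 5.20 ± 0.27 and 3.16 ± 0.38 units above type 1 and type 2 cells.

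Genes that restrain T cells moved both ways. Of 15 tested, 10 were higher and 4 lower than in type 1 cells, and 8 higher and 5 lower than in type 2 cells. The shares over all genes tested were 20.4% higher and 19.6% lower for type 1, and 12.5% and 11.8% for type 2. Cd274 stood at 361 and 329 CPM in ibudilast and PBS members, against 54.0 and 43.2 CPM in type 1 and 59.1 and 51.8 CPM in type 2 cells. Pdcd1lg2 (PD-L2), the other ligand of Pdcd1, was 3.19 ± 0.23 and 4.81 ± 0.49 units above type 1 and type 2 cells. Cd200, which signals to the inhibitory receptor Cd200r1, was 5.08 ± 0.23 units above type 1 cells, and 70.9 times the type 2 level from 2 UMIs in that class (interval 19.6 to 587). Aldh1a2, an enzyme of retinoic acid synthesis, stood at 21.6 and 30.9 CPM in ibudilast and PBS members and was higher than in both types, although DESeq2 did not call it against type 2 (adjusted p = 0.0714). Havcr2 (TIM-3), Tgfb1 and Lgals9 were lower than in both types. Vsir (VISTA) was also called lower than in both, but DESeq2 called it against neither (adjusted p = 0.220 for type 1 and 0.101 for type 2), and against type 2 it missed the threshold without the 2 barcodes with Olig1 (adjusted p = 0.0571). After thinning, its log2 fold change against type 1 was 0.0373. Havcr2 stood at 10.8 and 14.7 CPM in ibudilast and PBS members, against 154 and 126 CPM in type 1 and 59.1 and 57.3 CPM in type 2 cells, and it missed the threshold against type 2 after thinning (adjusted p = 0.445).

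Among presentation genes, those of MHC class II were mostly lower in members and those of class I more often higher than lower. Of 12 MHC class II genes tested, 10 were lower than in type 1 cells and 12 than in type 2 cells, with medians of -1.79 and -1.68. H2-Ab1, the beta chain of the main class II molecule, stood at 2402 and 3197 CPM in ibudilast and PBS members, against 10434 and 10762 CPM in type 1 and 9115 and 11497 CPM in type 2 cells. Ciita, the master regulator of class II genes, fell by 2.11 ± 0.20 log2 units against type 1 and by 2.24 ± 0.23 against type 2 cells. Of 14 class I genes, 8 were higher and 2 lower than in type 1 cells, and 9 higher and 2 lower than in type 2 cells. B2m, the light chain of class I, was 1.05 ± 0.14 and 1.08 ± 0.15 units above them, and the proteasome activator subunit Psme2 1.89 ± 0.16 and 2.15 ± 0.18. The 2 that were lower than in both were Calr and Pdia3, chaperones of class I assembly. Pdia3 was not called against type 2 by DESeq2 (adjusted p = 0.0827) or after thinning (adjusted p = 0.218).

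Genes of the type 1 programme were mostly lower in members than in type 1 cells, which were gated on 2 genes of that programme. Of 13 tested outside the gating genes, 12 were lower than in type 1 cells and 1 was higher. Against type 2 cells, 5 were lower and 2 higher, with a median of 0.08. Itgae, the integrin chain CD103, stood at 9.68 and 5.88 CPM in ibudilast and PBS members, against 323 and 392.1 CPM in type 1 and 35.5 and 95.4 CPM in type 2 cells. Wdfy4, needed for cross-presentation, fell by 3.94 ± 0.23 log2 units against type 1 cells. Batf3, a transcription factor needed for the type 1 lineage, was the 1 higher than in type 1 cells, by 0.55 ± 0.18 units (adjusted p = 0.0157). DESeq2 did not call that difference (adjusted p = 0.125). Against type 2 cells Batf3 was 1.70 ± 0.25 units higher. Irf8, which the same lineage needs, lay between the types: 1148 and 1143 CPM in ibudilast and PBS members, against 2169 and 2046 CPM in type 1 and 213 and 183 CPM in type 2 cells. Type 2 and monocyte-derived genes were also mostly lower, 11 of 18 against type 2 cells. Clec10a, a lectin of type 2 cells, had 0 and 4.41 CPM in ibudilast and PBS members, against 313 and 185 CPM in type 2 cells. Irf4, which type 2 migration needs, was 2.81 ± 0.44 units above type 1 cells and did not pass the test against type 2 cells (0.13 ± 0.55).

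Cell cycle genes differed from type 1 cells more than from type 2 cells in number: 15 of 16 were lower than in type 1 cells, with a median of -1.55, and 1 of 16 was lower than in type 2 cells, where 11.8% of all genes tested were lower. DESeq2 called 3 of the 16 lower than in type 1 cells. Without the 2 barcodes with Olig1, 16 of 16 were lower than in type 1 cells, with a median of -2.05. Against type 2 cells 3 of 16 were then lower, and the median was -0.59 where it had been -0.31. The difference between the 2 contrasts was not tested.

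Genes of movement and shape included more higher than lower members. Of 27 tested, 17 were higher and 6 lower than in type 1 cells, where 20.4% and 19.6% of all genes were. Against type 2 cells 14 were higher and 7 lower, where 12.5% and 11.8% of all genes were. Marcks and Marcksl1, which link the membrane to actin, were 2.23 ± 0.17 and 4.36 ± 0.20 units above type 1, and 2.77 ± 0.20 and 2.59 ± 0.21 above type 2 cells. The receptors Ccr1 and Ccr2, which bind inflammatory chemokines, were lower than in both types. Ccr1 was not called against type 1 by DESeq2 (adjusted p = 0.101), nor after thinning against type 1 (adjusted p = 0.0543) or type 2 (adjusted p = 0.0820). Ccr2 stood at 28.5 and 8.82 CPM in ibudilast and PBS members, against 131 and 70.8 CPM in type 1 and 473 and 376 CPM in type 2 cells.

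Genes that make, sense or break down cyclic AMP were examined because ibudilast blocks phosphodiesterases, the enzymes that degrade it. Of 19 cAMP response genes tested, 13 were higher and 5 lower than in type 1 cells, and 8 higher and 5 lower than in type 2 cells. Of 9 genes tested from a list of targets of the drug, 3 were higher and 2 lower than in type 1 cells. Against type 2 cells, 2 were higher and 3 lower. Pde4b, a phosphodiesterase of immune cells and a target of the drug, stood at 137 and 140 CPM in ibudilast and PBS members, against 27.6 and 31.8 CPM in type 1 and 35.5 and 70.9 CPM in type 2 cells. Its log2 fold change was 2.36 ± 0.21 against type 1 and 1.35 ± 0.29 against type 2 (adjusted p = 6.19e-04 for type 2). Adora2a, Adcy6 and Ramp3 were named by their rank against both types. Adora2a, the adenosine receptor that raises cAMP, stood at 110 and 107 CPM in ibudilast and PBS members, with 1 UMI over all type 1 cells and none in type 2 cells, at least 19.4-fold higher than in type 2. Adcy6, an adenylate cyclase, stood at 121 and 130 CPM in ibudilast and PBS members and had no UMI in type 2 cells, at least 22.4-fold higher. Ramp3, which with a partner receptor binds adrenomedullin, stood at 669 and 659 CPM in ibudilast and PBS members, against 0 and 3.39 CPM in type 1 and 5.91 and 8.18 CPM in type 2 cells. Ptger4, a receptor for prostaglandin E, and Crem and Nr4a3, transcription factors that cAMP induces, were higher than in both types, although Crem was not called against type 2 by DESeq2 (adjusted p = 0.0882) or after thinning (adjusted p = 0.0663). Fos, Fosb and Nr4a1, which cAMP and handling stress both induce, were lower than in both, Nr4a1 not against type 2 after thinning (adjusted p = 0.136). Of 20 dissociation stress genes, 5 were higher and 5 lower than in type 1 cells, and 2 higher and 13 lower than in type 2 cells. Over all genes tested, 20.4% were higher and 19.6% lower than in type 1 cells, and 12.5% and 11.8% than in type 2 cells.

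Members of the ibudilast and PBS libraries were then compared with each other. A gene was counted as higher or lower when its CPM over all members differed by 1.5-fold or more, among 5361 genes with at least 50 UMIs. 576 genes were higher in ibudilast members (10.7%) and 192 lower (3.58%), and the median log2 ratio was 0.06. Without the 2 barcodes with Olig1, 287 of 5070 genes were higher (5.66%) and 154 lower (3.04%), with a median of 0.04. TMM scaling, which lowers every log2 ratio by 0.11, gave 410 higher and 315 lower genes over all members. With 1 library per group these counts describe the libraries and not the treatment.

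The 2 ligands of Ccr4 were lower in ibudilast members. Ccl22 stood at 567 CPM in ibudilast (995 UMIs, exact Poisson 95% interval 532 to 603) and 1270 CPM in PBS members (1728 UMIs, 1211 to 1331), a ratio of 0.446 (exact conditional interval 0.412 to 0.483). A UMI of Ccl22 was present in 71.8% of ibudilast and 88.0% of PBS members, and in 51.7% and 69.0% after thinning to 2000 UMIs. T cell barcodes thinned alike, which should lack it, had it in 0.485% and 0.278% at medians of 9368 and 8640 UMIs before thinning. The ratio was 0.496 without the barcodes with Olig1 and 0.532 with each barcode weighted alike. Ccl17 stood at 198 CPM in ibudilast and 537 CPM in PBS members, a ratio of 0.368 (0.323 to 0.419). It was found in 18.7% of ibudilast and 41.8% of PBS members, and in 8.29% and 29.0% after thinning, against 0.388% and 0.833% of T cell barcodes. In type 1 cells Ccl17 was also lower in the ibudilast library, at 56.9 against 245.4 CPM. The few type 2 cells held 11.8 CPM of Ccl17 in the ibudilast and 303 CPM in the PBS library. Ccl22 stood at 40.2 CPM in ibudilast and 58.5 CPM in PBS type 1 cells. In type 2 cells Ccl22 went the other way, with 76.8 CPM in the ibudilast and 32.7 CPM in the PBS library. Among thinned members with a Ccl17 UMI, 13 of 17 in the ibudilast and 36 of 45 in the PBS library also had Ccl22. Without Ccl17, 93 of 186 and 71 of 110 had Ccl22.

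The other markers of the state did not share that ratio. Cacnb3 had a ratio of 1.08 (0.981 to 1.18), Il4i1 of 1.17 (1.06 to 1.28), Ccl5 of 1.24 (1.21 to 1.27) and Relb of 1.05 (0.967 to 1.15). Of the 29 mature markers with enough UMIs, 0 were 1.5-fold higher and 3 lower in ibudilast members, Ccl17, H2-M2 and Insm1, and 4 were lower with TMM scaling. Over all genes, 10.7% were higher and 3.58% lower, and 7.65% and 5.88% with TMM scaling. Without the 2 barcodes with Olig1 these shares were 5.66% and 3.04%. None of 23 NF-kB genes was past 1.5-fold in either direction, nor was Cd274 (1.10, 0.971 to 1.24) or Pde4b (0.974, 0.802 to 1.18). Of 6 listed ibudilast targets with enough UMIs, 1 was 1.5-fold higher and 2 lower, with a median log2 ratio of -0.505. Without the 2 barcodes with Olig1, 0 were higher and 1 lower, and with TMM scaling 0 were higher and 4 lower.

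**Figure D4:**
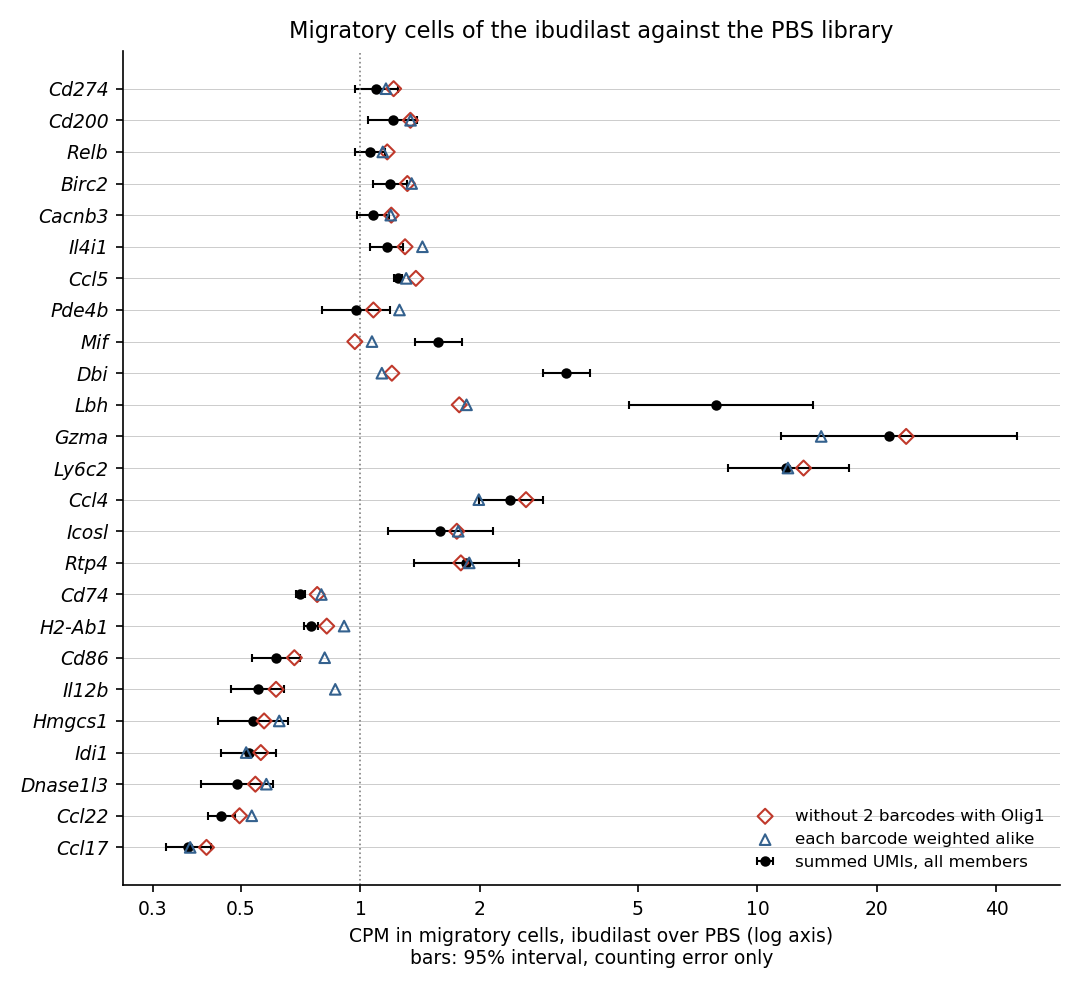
Ratio of CPM in migratory cells of the ibudilast library over the PBS library (log axis) for 25 genes, from summed UMIs with 95% counting intervals (black), without the 2 barcodes with Olig1 (red) and with each barcode weighted alike (blue). Ccl22 and Ccl17 stay under 0.55 in all 3, while Dbi and Lbh, at 3.30 and 7.84 over all members, are under 2 once the 2 barcodes are left out.

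Cytokine and costimulatory genes included 1 higher and 2 lower members among 13, where 10.7% of all genes were higher and 3.58% lower. Without the 2 barcodes with Olig1, 2 were higher and 1 lower, where 5.66% and 3.04% of all genes were. Il12b stood at 166 CPM in ibudilast and 301 CPM in PBS members, a ratio of 0.551 (0.473 to 0.642). A single PBS barcode held 21.8% of its PBS UMIs and a single ibudilast barcode 13.1% of its ibudilast UMIs, and with each barcode weighted alike the ratio was 0.864. Cd86 stood at 207 CPM in ibudilast and 338 CPM in PBS members (ratio 0.613), and its ratio was 0.813 with equal weights. Icosl, the ligand of Icos on T cells, stood at 78.0 CPM in ibudilast and 49.2 CPM in PBS members (ratio 1.58, interval 1.17 to 2.16).

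Among the 12 genes ranked lowest in ibudilast members were also Ceacam15, Tm4sf5, Mcpt1, Insm1, Lncpint and Ikzf4, with ratios between 0.14 and 0.49. Dnase1l3, a secreted DNase of dendritic cells, stood at 87.7 CPM in ibudilast and 179 CPM in PBS members (ratio 0.489), and Cdkn1a, the cell cycle inhibitor p21, at 422 and 734 CPM (ratio 0.575). Genes of sterol synthesis were among the lower ones: 4 of 11 cholesterol and lipid genes were 1.5-fold lower and none higher, with a median log2 ratio of -0.38. Over all genes, 3.58% were lower and 10.7% higher. Without the 2 barcodes with Olig1, 4 of 11 were lower, where 3.04% of all genes were, and the median was -0.29. Hmgcs1, an early enzyme of the pathway, stood at 94.0 CPM in ibudilast and 175 CPM in PBS members (ratio 0.537, 0.438 to 0.658). Sqle, further down, had a ratio of 0.608. Idi1, of the same pathway but not on that list, had a ratio of 0.523 (0.445 to 0.612). Idi1 was also lower in type 1 cells of the ibudilast library, with a ratio of 0.573, and higher in type 2 cells, at 171 CPM in the ibudilast and 87.3 CPM in the PBS library.

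Class II genes had a median log2 ratio of -0.34 in members, and 1 of 11 was 1.5-fold lower, where 3.58% of all genes were. Without the 2 barcodes with Olig1 the median was -0.24 and 0 of 11 were past 1.5-fold. With TMM scaling 3 of 11 were lower, where 5.88% of all genes were. Cd74, the invariant chain and also the receptor of MIF, stood at 5894 CPM in ibudilast and 8362 CPM in PBS members (ratio 0.705, 0.686 to 0.724). Mif itself stood at 364 CPM in ibudilast and 231 CPM in PBS members (ratio 1.57, 1.37 to 1.80). A single ibudilast barcode held 38.5% of its UMIs there, and without the 2 barcodes with Olig1 the ratio was 0.968. Ddt, a relative of Mif, had a ratio of 0.643 and of 0.847 with equal weights.

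Several of the genes ranked highest in ibudilast members rested on few barcodes. For Gzma, Gzmb and Nkg7, proteins of cytotoxic granules, a single barcode held 47.8%, 47.6% and 25.3% of the ibudilast UMIs. Gzma stood at 157 CPM in ibudilast and 7.35 CPM in PBS members (ratio 21.4), and at a ratio of 1.85 without the barcodes that carried markers of other cell types. The ratios of Dbi and Lbh, 3.30 and 7.84 over all members, were 1.20 and 1.77 without the barcodes with Olig1. All 9 cell cycle genes with enough UMIs were 1.5-fold higher in ibudilast members, where 10.7% of all genes were. Without those barcodes 2 of 6 were, where 5.66% of all genes were. Haemoglobin Hbb-bs, which marks red cells, had a UMI in 11.7% of ibudilast and 0 of 155 PBS members after thinning, and in 8.83% and 1.11% of T cell barcodes.

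Ly6c2, a surface protein of inflammatory monocytes and of some T cells, stood at 313 CPM in ibudilast and 26.5 CPM in PBS members (ratio 11.8, 8.43 to 17.1). It was no part of the rule for members, and it is named here after its value was seen. 54 of 209 ibudilast and 25 of 158 PBS members had a UMI of it. 14 ibudilast members held 10 or more and carried 85.1% of the ibudilast UMIs, and no PBS member held as many. After thinning it was found in 12.2% of ibudilast and 3.23% of PBS members, against 50.6% and 37.1% of T cell barcodes, a class that expresses it. Type 1 cells, whose rule does not use Ly6c2, stood at 635 CPM in the ibudilast and 601 CPM in the PBS library. Type 2 cells were limited by their rule to under 2 UMIs of it. Ccr2, another monocyte marker, stood at 28.5 CPM in ibudilast and 8.82 CPM in PBS members, against 131 and 70.8 CPM in type 1 cells. In members, 2 of 4 monocyte markers with enough UMIs were 1.5-fold higher and 1 lower, where 10.7% and 3.58% of all genes were. Their part in the other differences was not tested.

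Among other chemokines, Ccl4 stood at 270 CPM in ibudilast and 113 CPM in PBS members (ratio 2.39). Ccl2 stood at 101 CPM in ibudilast and 55.9 CPM in PBS members (ratio 1.81), with 36.5% of its ibudilast UMIs in a single barcode, and its ratio was 0.612 with likely doublets left out. Ccl12, a ligand of Ccr2, stood at 34.2 CPM in ibudilast and 63.2 CPM in PBS members (ratio 0.541). Rtp4, an interferon-induced gene, stood at 86.6 CPM in ibudilast and 47.0 CPM in PBS members (ratio 1.84). It was the only 1 of 19 interferon response genes past 1.5-fold, where 10.7% of all genes were higher and 3.58% lower.

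Members were not uniform. Principal components of 400 variable genes were computed over 365 members, without the 2 barcodes with Olig1. The first component held 10.8% of the variance. At its positive end stood Cxcl9, a chemokine induced by interferon gamma, followed by Ly6a, Ly6e, S100a6, Plac8, Ms4a4c, S100a4 and Irf7. At its negative end stood Slc27a3, Cd81, Il12b, Igfbp4 and Laptm4b, of which Slc27a3 and Igfbp4 are among the 12 genes ranked highest against both conventional types. Its median score was -1.14 in ibudilast and -2.08 in PBS members, the members of both libraries overlapped along it, and its correlation with log2 UMIs over the 365 barcodes was 0.29. The second component, with 4.24%, ran from Klf2, Fos, Btg2 and Il1b at 1 end to Cxcl9, Ddt and Ccl17 at the other, with medians of 0.50 in ibudilast and -0.69 in PBS members.

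**Figure D5:**
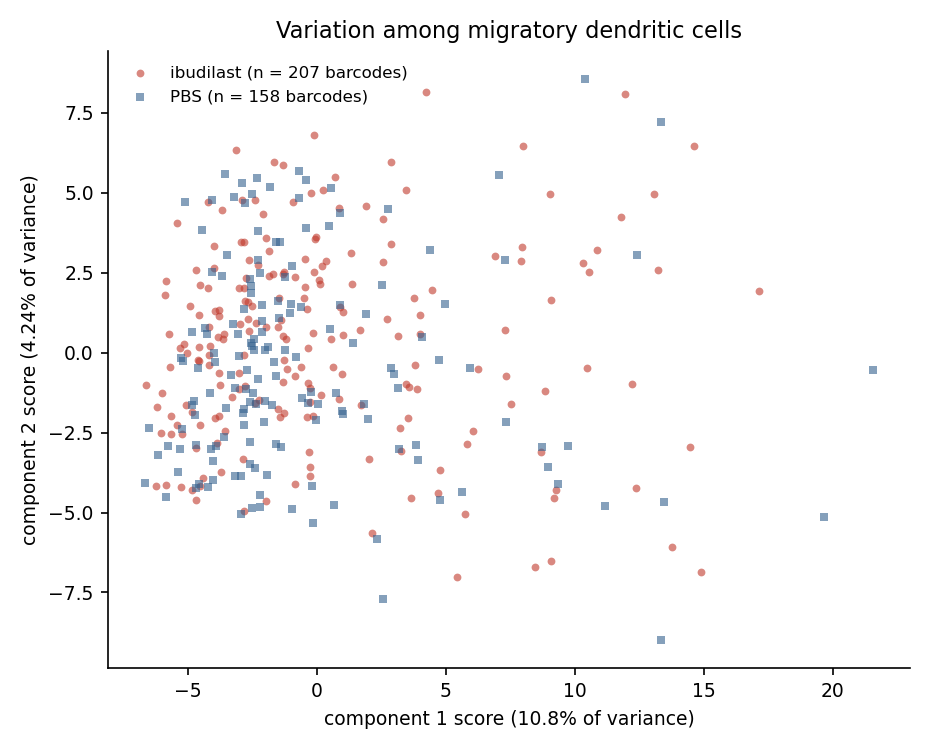
Scores of 365 migratory dendritic cells, 207 of the ibudilast (circles) and 158 of the PBS library (squares), on the first 2 principal components of 400 variable genes. Most members of both libraries lie at low scores of component 1, with a tail toward the end led by Cxcl9 and Ly6a.

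Thinned members also showed which of these genes were found in the same barcode. Ly6a had a UMI in 23 of 54 ibudilast members with Cxcl9 and in 26 of 149 without it. In PBS members the counts were 21 of 41 with Cxcl9 and 18 of 114 without it. For Irf7 they were 27 of 54 and 42 of 149 in ibudilast members, and 17 of 41 and 23 of 114 in PBS members. Il12b had a UMI in 4 of 54 ibudilast members with Cxcl9 and 25 of 149 without it. In the PBS library the order was the other way, 10 of 41 with Cxcl9 and 19 of 114 without it. Levels per barcode were broad: the median ibudilast member held 278 CPM of Ccl22, the upper quartile began at 785 CPM and the highest member stood at 5792 CPM. In PBS members these values were 613, 1489 and 12340 CPM. Ccl17 was at 0 in the median member of each library, and its 90th percentile was 189 CPM in ibudilast and 1523 CPM in PBS members.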

How the data were processed

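The deposited matrices hold UMI counts per gene and barcode, which per the file headers the authors obtained from Cell Ranger 6.1.1; the build was mm10 per the submitters' processing notes. Mitochondrial and total limits, class rules and members were applied to these raw counts. The members, lists and tests were chosen with earlier results of these data known. Summed UMIs of 3 classes in 2 libraries were tested with edgeR 4.0.16 (quasi-likelihood test, TMM scaling, library and class as terms, Benjamini-Hochberg over genes kept by filterByExpr), and with DESeq2 1.42.0 as an alternative. The class contrasts have 2 libraries as their replicates, 1 of each treatment. With the library as a term, their p-values rest on how class differences vary between the ibudilast and the PBS library. Spread between replicate libraries and an effect of treatment on these differences cannot be told apart there. With 1 library per treatment, ibudilast and PBS were compared as CPM with exact counting intervals at 95%, which leave out variation between mice. The script for the class contrasts was tested on simulated data. Doublets were not removed; as an alternative the 6% of barcodes with the highest Scrublet scores (scanpy 1.11.5) were left out. Other alternatives thinned barcodes to 2000 UMIs or changed the limits. Named genes were the given markers, members of the lists, and the 12 most extreme genes per direction of each comparison, with at least 50 CPM against the conventional types. Components came from scikit-learn 1.9.0. Ribosomal protein and mitochondrial genes, and those of gating, were left out of the ranked genes.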

Additional observations from a re-analysis of the deposited data

How the results depend on the processing

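The share ratio of kept barcodes stayed between 1.41 and 1.65 and that among low-C1q barcodes between 0.894 and 1.04 over the alternatives run. DESeq2 called 1045 higher and 792 lower genes against type 1, 666 higher against type 2, and 546 higher and 418 lower against both. Thinning to 2000 UMIs, which left 4097 genes to test, gave 921 and 845 against type 1, 528 and 394 against type 2, and 450 and 290 against both. With no limit on Ly6c2 in type 2 cells, 1628 genes were lower than in type 2. Between ibudilast and PBS members, 287 genes were 1.5-fold higher without the barcodes with Olig1, 118 higher and 85 lower after thinning, and 65 higher and 33 lower with at least 200 UMIs. TMM scaling gave 410 higher and 315 lower, and median-ratio scaling 403 and 332. Directions changed for Ccl2 between libraries with likely doublets left out (ratio 0.612), and for Mif without the barcodes with Olig1 (0.968) and after thinning (0.806). Against type 2 cells, Nfkb1, which did not pass the test, stood at 0.0564 with no limit on Ly6c2 and 0.495 after thinning. Against type 1 cells, Vsir stood at 0.0373 after thinning. The cause was not tested. Named genes of the class contrasts lost the call in 28 cases, among them Ankrd33b, Apol7c and Tmem150c with DESeq2, and gained it in 5. The alternatives without barcodes with Olig1, without barcodes with other markers and with no Ly6c2 limit were chosen after seeing the data. No paired analysis of ibudilast against PBS was possible because each treatment had 1 library. The class contrasts, with the library as a term, compared classes within each library. Class sums of type 2 cells, 46 barcodes, limit what can be detected there.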
